A study of Mus musculus with 6 samples.

Results

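In splenic CD4+ T cells carrying the activation receptor ICOS, the libraries of cells that also reported Il21 transcription (ACT_IL21) were compared with those of cells that did not (ACT). The comparison rests on 4 of the 6 libraries of the series, 2 per pool, and on 13311 genes that reached 1 TPM (a transcript abundance normalised for gene length and for the library total) in at least 2 of the 6 libraries, out of 38216 gene symbols. ACT cells were sorted as VFP-ICOS+ and ACT_IL21 cells as VFP+ICOS+. The remaining 2 libraries, from VFP-ICOS- cells (N), served only to estimate the spread between libraries and to place levels. All pools came from the spleens of unimmunised C57BL/6 mice on postnatal day 28, and all of these mice, the source of ACT and N cells included, carried the IL21-VFP reporter, in which a fluorescent protein marks transcription of Il21. Each library is RNA of a sorted bulk pool. How many animals a pool holds, and whether the 2 libraries of a pool came from different animals, is not given in the sources used here, so the p-values reflect how far duplicate libraries differ, a spread that may be technical.

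Il21 encodes a cytokine by which T follicular helper cells act on B cells in germinal centres. Such cells arise when activated CD4+ T cells take up the repressor BCL6, gain the chemokine receptor CXCR5 and move toward B cell follicles, while BLIMP-1 (Prdm1) and ID2 oppose that programme and favour effector fates. ICOS is raised on activated T cells generally, so an ICOS+ gate can hold regulatory, effector, memory and innate-like T cells besides follicular helper cells.

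The genes used to sort were read first, as a check of the labels and not as a result. Il21 stood at 0 and 1.26 TPM in the ACT libraries, 44.5 and 51.9 TPM in ACT_IL21 and 0 and 0 TPM in N. Icos stood at 254 and 241 TPM in ACT, 185 and 227 TPM in ACT_IL21 and 35.7 and 31.9 TPM in N. Cd4 stood at 268 and 236 TPM in ACT and 534 and 567 TPM in ACT_IL21, with 358 and 316 TPM in N. Icos was thus present in both pools compared and did not pass the test between them (log2 fold change -0.27, limma adjusted p = 0.493), whereas Cd4, though every pool was gated on CD4, was higher in ACT_IL21 than in ACT (log2 fold change 1.13 ± 0.14 SE, limma adjusted p = 0.0103). Cd3e, a chain of the T cell receptor complex, stood at 2132 and 1561 TPM in ACT and 1990.3 and 2095 TPM in ACT_IL21, and Cd8a, of CD8 T cells, at 0 to 0.08 TPM in these 4 libraries. Between 12095 and 12396 genes reached 1 TPM in a library. Spearman correlations across genes were 0.941 within ACT, 0.957 within ACT_IL21 and 0.923 to 0.931 between the 2 pools, where genes are not independent replicates. Ribosomal protein genes took 13.1% and 11.2% of TPM in ACT and 10.5% and 10.7% in ACT_IL21.

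Genes that were higher in ACT_IL21 included 5 of 16 transcription factors of follicular helper cells and their opponents, among them Klf2, known to restrain that programme. They also included 9 of 22 surface or secreted genes listed for follicular helper cells. Genes that were lower included those of regulatory, innate-like and effector T cells. In ACT_IL21, 106 genes (0.796% of those tested) were higher and 153 (1.15%) were lower at a limma adjusted p under 0.05, together 259 genes or 1.95%. The 106 include Il21, which the sort itself fixed, and Gm12534, an antisense gene inside the span of Il21. Of the 259, 95 higher and 147 lower genes differed by more than 2-fold on the log2(TPM + 1) scale used throughout, which understates the change of low genes. The median log2 fold change over all 13311 genes was 0.0759. For all 259 genes the ACT and ACT_IL21 libraries did not overlap, which also holds for 41.8% of all genes tested. In these bulk pools, fewer cells of a type and less RNA per cell cannot be told apart. The calls lean on every library: with ACT replicate 1 or replicate 2 left out 35 and 81 genes passed, with N replicate 1 or 2 left out 76 and 74, with ACT_IL21 replicate 2 left out 5, and with ACT_IL21 replicate 1 left out 0 (smallest limma adjusted p 0.0621, with 1631 genes at an unadjusted p under 0.05). In such fits the pool left with a lone library is assumed to vary like the others. The direction of the 259 genes could not change in these fits, since their ACT and ACT_IL21 libraries do not overlap. Most of the 259 kept their call in none of them.

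**Figure D1:**
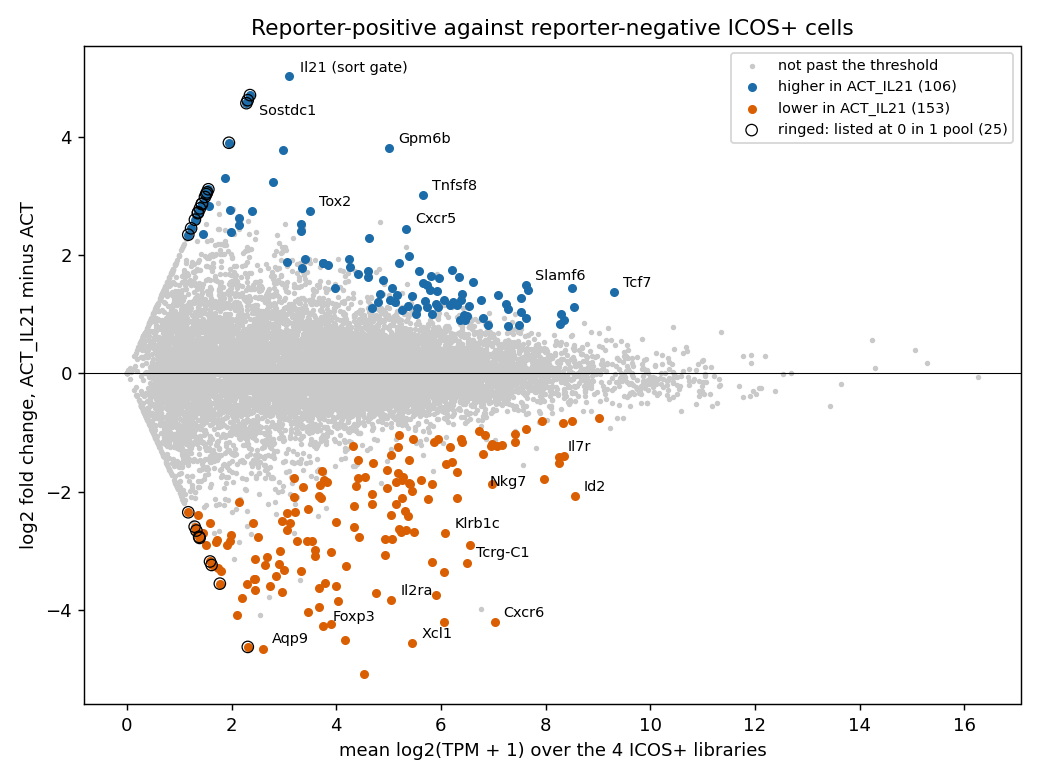
Each point is 1 of 13311 genes. The horizontal axis is its mean log2(TPM + 1) over the 4 ICOS+ libraries and the vertical axis the log2 fold change of ACT_IL21 minus ACT; blue points (106) were higher and orange points (153) lower in ACT_IL21 at a limma adjusted p under 0.05. Ringed points are the 25 called genes listed at 0 in both libraries of 1 pool, whose plotted fold depends on the added 1 TPM. Gpm6b, Tnfsf8 and Cxcr5 stand out above and Cxcr6, Il2ra and Foxp3 below, and Il21 is the gene of the sort gate.

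Among transcription factors of follicular helper cells and their opponents, Bcl6, Tox2, Pou2af1 and Tcf7 were higher in ACT_IL21, and Id2 and Prdm1, which oppose that fate, were lower. Klf2, which also restrains it, was higher. Of 16 factors in the list, all tested, 5 rose, 2 fell and 9 did not pass, with a median log2 fold change of 0.71 beside 0.0759 for all genes. These counts and this median take in factors of both roles. Bcl6, the repressor that defines the lineage (chr16:23965052-23988852), stood at 24.02 and 19.9 TPM in ACT, 55.6 and 48.7 TPM in ACT_IL21 and 22.9 and 24.6 TPM in N. Only the ACT_IL21 libraries were raised, and ACT overlapped N (log2 fold change 1.21 ± 0.22 SE, limma adjusted p = 0.0342). Tox2, an HMG-box factor that promotes the follicular helper programme, stood at 3.53 and 3.24 TPM in ACT and 27.3 and 29.2 TPM in ACT_IL21, and was listed at 0 throughout N. The ACT_IL21 libraries were far above both other pools (log2 fold change 2.74 ± 0.38 SE, limma adjusted p = 0.0144). Pou2af1, the transcriptional coactivator known as OCA-B, stood at 23.2 and 35.5 TPM in ACT, 78.2 and 90.7 TPM in ACT_IL21 and 21.6 and 20.8 TPM in N. It was again the ACT_IL21 libraries alone that stood above the rest (log2 fold change 1.52 ± 0.25 SE, limma adjusted p = 0.0242).

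Tcf7, which encodes TCF-1, a factor of naive and stem-like T cells that also sustains Bcl6, showed another pattern: 1208 and 961 TPM in N, 409 and 378 TPM in ACT and 997 and 1046 TPM in ACT_IL21. Here ACT was the low pool, and both ACT_IL21 libraries fell within the range of the N libraries (log2 fold change 1.37 ± 0.15 SE, limma adjusted p = 0.00661). Klf2, a factor that keeps S1pr1 transcribed and is known to restrain follicular helper differentiation, stood at 42.1 and 53.1 TPM in ACT, 93.05 and 123 TPM in ACT_IL21 and 157 and 152 TPM in N. ACT_IL21 lay between the others without touching either (log2 fold change 1.16 ± 0.2 SE, limma adjusted p = 0.0278). Tox (85.2 and 95.7 TPM in ACT and 142 and 157 TPM in ACT_IL21, log2 fold change 0.72 ± 0.16 SE, limma adjusted p = 0.0709) and Nfatc1 (149 and 129 TPM and 209.6 and 241 TPM, log2 fold change 0.7 ± 0.17 SE, limma adjusted p = 0.0959) were the closest of those that did not pass. Maf, chosen after its values were seen because it drives Il21 transcription, stood at 63.9 and 62.8 TPM in ACT, 100.3 and 107 TPM in ACT_IL21 and 1.24 and 1.64 TPM in N. Its ACT_IL21 libraries lay above ACT without passing the test (log2 fold change 0.7 ± 0.23 SE, limma adjusted p = 0.197).

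Id2, an inhibitor that binds E proteins and keeps them off DNA (chr12:25093799-25097140), stood at 860.1 and 693 TPM in ACT, 210.3 and 159 TPM in ACT_IL21 and 50.7 and 54.9 TPM in N. Both ACT_IL21 libraries were below ACT and above N (log2 fold change -2.07 ± 0.18 SE, limma adjusted p = 0.00324), and this call stood in 4 of the 6 fits that each left out 1 library. Prdm1, which encodes BLIMP-1, the repressor that antagonises BCL6 (chr10:44437177-44528501), stood at 38.6 and 45.9 TPM in ACT, 10.5 and 13.3 TPM in ACT_IL21 and 8.49 and 8.36 TPM in N. The ACT libraries were the high ones, and ACT_IL21 lay close to N (log2 fold change -1.75 ± 0.27 SE, limma adjusted p = 0.0215). Of the 7 calls in this list, 4 were lost with the ACT and ACT_IL21 libraries fitted alone (Bcl6, Pou2af1, Klf2 and Prdm1) and 5 with no filter on low values (the same 4 genes and Tox2). Unlike that of Id2, the calls of Bcl6, Tox2, Klf2 and Prdm1 were lost in every fit that left out 1 library. Without an intensity trend in the spread, 4 were lost (Bcl6, Tcf7, Pou2af1 and Klf2), and with a pseudocount of 0.1 TPM 1 was lost (Tox2, limma adjusted p = 0.0754).

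Surface and secreted genes of follicular helper cells held 9 of the rises. Of 22 tested, 9 rose, 1 fell and 12 did not pass, with a median log2 fold change of 0.89. Tnfsf8, which encodes CD30 ligand (chr4:63831308-63861347), stood at 16.4 and 17.2 TPM in ACT, 129 and 157 TPM in ACT_IL21 and 37.7 and 36.2 TPM in N. ACT was the lowest pool and ACT_IL21 the highest, with no overlap among the 3 (log2 fold change 3.01 ± 0.19 SE, limma adjusted p = 0.0019, call kept in 4 of the 6 fits without 1 library). Cxcr5, the receptor that guides cells to the follicle (chr9:44511787-44561877), stood at 17.8 and 15.03 TPM in ACT, 95.03 and 91.9 TPM in ACT_IL21 and 3.85 and 1.54 TPM in N. Its level stepped up from N to ACT and from ACT to ACT_IL21, and the latter step passed (log2 fold change 2.44 ± 0.35 SE, limma adjusted p = 0.0155). Gpm6b, a membrane proteolipid, stood at 5.45 and 10.6 TPM in ACT, 128 and 113 TPM in ACT_IL21 and 1.67 and 2.12 TPM in N. This was the largest difference among list members detected in both pools (log2 fold change 3.8 ± 0.35 SE, limma adjusted p = 0.00367). Angptl2, a secreted angiopoietin-like protein, stood at 10 and 10.3 TPM in ACT and 58.2 and 49.6 TPM in ACT_IL21, with 0.46 and 0.73 TPM in N (log2 fold change 2.29 ± 0.33 SE, limma adjusted p = 0.0155). Sostdc1, a secreted antagonist of BMP and Wnt signalling, was listed at 0 throughout ACT and N but reached 18.5 and 33.8 TPM in ACT_IL21, so no fold is given. Having passed the filter on low values through ACT_IL21 alone, Sostdc1 could only count as a rise.

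Receptors with moderate differences belonged to cell contact and cytokine sensing. Slamf6, a SLAM-family receptor of T and B cell contacts, stood at 109.8 and 125 TPM in ACT, 344 and 318 TPM in ACT_IL21 and 98.8 and 83.1 TPM in N. The ACT_IL21 libraries lay well above both other pools (log2 fold change 1.49 ± 0.16 SE, limma adjusted p = 0.00561). Btla, an inhibitory receptor, stood at 99.9 and 139.9 TPM in ACT and 283 and 292 TPM in ACT_IL21 (log2 fold change 1.27 ± 0.2 SE, limma adjusted p = 0.0233), and Cd200, the ligand of an inhibitory receptor on myeloid cells, at 67.5 and 56.6 TPM and 146 and 128 TPM (log2 fold change 1.13 ± 0.19 SE, limma adjusted p = 0.0258). Il6ra, through which IL-6 promotes Bcl6 and Il21, stood at 34.8 and 27.3 TPM in ACT, 80.7 and 97.2 TPM in ACT_IL21 and 126 and 82.01 TPM in N. As with Tcf7, ACT was the low pool and ACT_IL21 overlapped N (log2 fold change 1.49 ± 0.25 SE, limma adjusted p = 0.0258). Its partner Il6st, with 99.7 and 146 TPM in ACT and 231 and 213 TPM in ACT_IL21, did not pass (log2 fold change 0.87 ± 0.19 SE, limma adjusted p = 0.073). Pdcd1, which encodes PD-1, a usual marker of follicular helper cells, was low, at 8.55 and 6.47 TPM in ACT, 24.8 and 14.1 TPM in ACT_IL21 and 0.24 and 1.14 TPM in N. Its ACT_IL21 libraries were the higher ones but differed widely from each other, and the gene did not pass (log2 fold change 1.23 ± 0.47 SE, limma adjusted p = 0.276).

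The member that fell was Il4, a cytokine made by follicular helper, type 2 helper and NKT cells. It stood at 90.7 and 61.4 TPM in ACT, 15.8 and 11.5 TPM in ACT_IL21 and 0.51 and 0 TPM in N. Both ACT_IL21 libraries lay below ACT and above N (log2 fold change -2.38 ± 0.38 SE, limma adjusted p = 0.0239). Of the 10 calls in this list, 3 were lost with the 4 ICOS+ libraries alone (Btla, Cd200 and Il6ra), and 6 with no filter on low values (Cxcr5, Angptl2 and Il4 besides those 3). Without an intensity trend 4 were lost (Btla, Cd200, Il6ra and Slamf6), and with a pseudocount of 0.1 TPM the call of Il4 was lost (limma adjusted p = 0.235). The calls of Cd200, Il6ra, Il4 and Angptl2 were lost in every fit that left out 1 library. That of Cxcr5 was lost in each fit that left out an ACT or ACT_IL21 library.

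**Figure D2:**
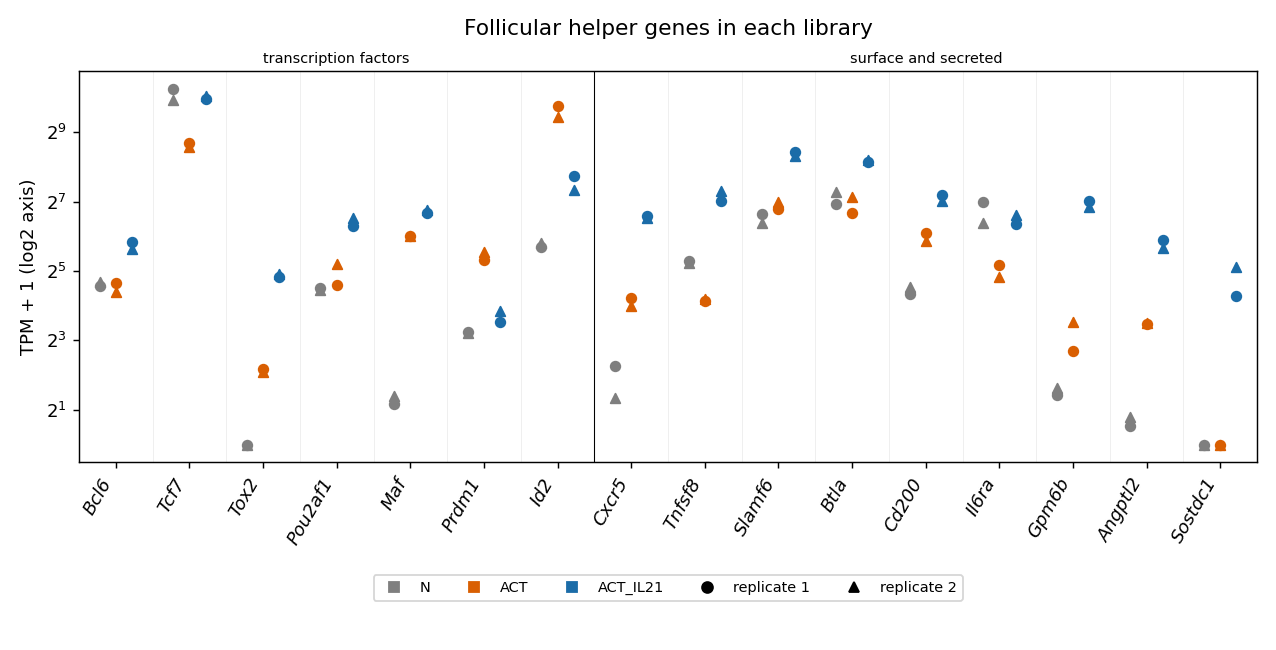
Level of 16 follicular helper genes in each library, as TPM + 1 on a log2 axis, with N in grey, ACT in orange and ACT_IL21 in blue, circles for replicate 1 and triangles for replicate 2. Blue points lie above orange for Bcl6, Tcf7, Tox2, Pou2af1 and the surface genes and below orange for Prdm1 and Id2; Maf did not pass the test.

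Because Id2 acts on E proteins and TCF-1 binds DNA itself, the letters of their known motifs were read in promoters of genes on both sides of the comparison. Shown are the 250 bases before the RefSeq start (GRCm38.p6) of a pair of genes that rose, Slamf6 and Angptl2, and a pair that fell, Prdm1 and Klrb1c, chosen after the search because each holds the E-box. The windows read for Tnfsf8, Gpm6b, Bcl6, Klf2, Il2ra, Ccr2, Xcl1 and Cxcr6 hold none. Windows of Tcf7, Id2, Foxp3 and Tox2, not shown, also hold the E-box, though not every window of Tcf7 and Tox2 does. The TCF/LEF letters CTTTGA, on either strand, lie in windows of Bcl6, Cxcr6 and Tox2. Capitals mark the E-box CAGNTG that E proteins prefer, on either strand. The windows are chr1:171917212-171917461 on the plus strand for Slamf6 and chr2:33215711-33215960 on the plus strand for Angptl2. Those on the minus strand are chr10:44458749-44458998 for Prdm1 and chr6:128788642-128788891 for Klrb1c. For both Prdm1 and Klrb1c the start lies within the annotated gene.
Slamf6: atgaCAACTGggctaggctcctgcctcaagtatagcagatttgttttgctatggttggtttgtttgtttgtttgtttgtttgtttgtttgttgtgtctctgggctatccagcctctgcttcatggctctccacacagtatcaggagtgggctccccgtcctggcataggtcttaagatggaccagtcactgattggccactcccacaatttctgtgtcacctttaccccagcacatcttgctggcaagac
Angptl2: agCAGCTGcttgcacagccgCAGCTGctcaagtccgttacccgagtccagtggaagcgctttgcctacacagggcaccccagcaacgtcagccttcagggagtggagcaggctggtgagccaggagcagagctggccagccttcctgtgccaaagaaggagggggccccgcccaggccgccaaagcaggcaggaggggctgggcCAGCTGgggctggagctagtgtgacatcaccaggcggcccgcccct
Prdm1: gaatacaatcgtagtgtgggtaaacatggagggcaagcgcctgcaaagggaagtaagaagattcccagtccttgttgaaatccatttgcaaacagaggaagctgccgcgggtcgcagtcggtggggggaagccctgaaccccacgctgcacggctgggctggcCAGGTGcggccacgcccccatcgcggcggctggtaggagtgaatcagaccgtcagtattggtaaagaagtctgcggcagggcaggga
Klrb1c: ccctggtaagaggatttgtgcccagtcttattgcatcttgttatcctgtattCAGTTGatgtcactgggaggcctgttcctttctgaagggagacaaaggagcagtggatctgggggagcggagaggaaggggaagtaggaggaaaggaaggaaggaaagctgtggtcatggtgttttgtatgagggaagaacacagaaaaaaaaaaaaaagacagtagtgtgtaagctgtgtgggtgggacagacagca
Angptl2 held the E-box at 3 places, 248, 230 and 46 bases before the start (positions of the first base of the match), and the others at 1 place each. Across genes with a promoter entry, CAGNTG was present in 53.8% of 65 genes that rose, 52.6% of 97 that fell and 42.0% of 8646 tested. The TCF/LEF letters CTTTGA were present in 10.8%, 17.5% and 12.6% of the same groups, the forkhead letters GTAAACA in 4.62%, 2.06% and 2.65%, the palindrome CACGTG in 9.23%, 5.15% and 9.95%, and the BCL6-type letters TTCCTNGAA in 1.54%, 4.12% and 1.35%, all on both strands. Genes that rose and genes that fell thus held the E-box letters in nearly equal shares. CAGNTG and CACGTG cannot share a site in full, and matches are descriptions of the letters only.

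Genes of naive and resting T cells split into groups of equal size. Of 25 tested, 5 rose (Tcf7, S1pr1, Klf2, Actn1 and Foxp1), 5 fell (Il7r, Ly6c1, Ly6c2, Ccr9 and Txk) and 15 did not pass, with a median of 0.26. S1pr1, the receptor for sphingosine-1-phosphate that lets T cells leave lymphoid organs (chr3:115710433-115715072), stood at 129 and 118 TPM in ACT, 313 and 349 TPM in ACT_IL21 and 536 and 463 TPM in N. ACT_IL21 lay between the other pools, nearer to N (log2 fold change 1.41 ± 0.15 SE, limma adjusted p = 0.00536). Actn1, a cytoskeletal actinin, had the same order with 34.9 and 31.4 TPM in ACT, 82.7 and 74.6 TPM in ACT_IL21 and 149 and 124 TPM in N (log2 fold change 1.22 ± 0.18 SE, limma adjusted p = 0.0163). Foxp1, a forkhead factor of T cell quiescence, stood at 149 and 122 TPM in ACT and 234 and 242 TPM in ACT_IL21 (log2 fold change 0.81 ± 0.16 SE, limma adjusted p = 0.048). In all 4 of Tcf7, S1pr1, Actn1 and Foxp1 the ICOS+ cells without the reporter had the lowest values of the 6 libraries.

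The naive-cell genes that fell did not share that order. Il7r, the interleukin-7 receptor that supports survival of naive and memory T cells (chr15:9505788-9530176), stood at 451 and 549 TPM in ACT, 171 and 205 TPM in ACT_IL21 and 416 and 427 TPM in N. ACT_IL21 was the pool set apart, below both others (log2 fold change -1.41 ± 0.16 SE, limma adjusted p = 0.00661). Txk, a Tec-family kinase, stood at 82.1 and 91.2 TPM in ACT, 35.7 and 41.5 TPM in ACT_IL21 and 116 and 105 TPM in N, again lowest in ACT_IL21 (log2 fold change -1.15 ± 0.17 SE, limma adjusted p = 0.0188). Ly6c1 stood at 21.2 and 29.4 TPM in ACT, 6.6 and 4.11 TPM in ACT_IL21 and 179 and 183 TPM in N (log2 fold change -2.06 ± 0.27 SE, limma adjusted p = 0.0121), and its near-identical neighbour Ly6c2, between which reads can be split with error, at 86.1 and 74.1 TPM, 10.1 and 11.2 TPM and 10.4 and 6.95 TPM (log2 fold change -2.8 ± 0.28 SE, limma adjusted p = 0.00467). In ACT_IL21 the former was below both other pools and the latter overlapped N. Among genes not past the threshold, Satb1, a chromatin organiser, stood at 804 and 917 TPM in ACT and 543 and 477 TPM in ACT_IL21 (log2 fold change -0.75 ± 0.16 SE, limma adjusted p = 0.0671). With the 4 ICOS+ libraries alone, 5 of the 10 calls in this list were lost (Klf2, Foxp1, Actn1, Ly6c1 and Txk), and without an intensity trend in the spread 7 were lost (Tcf7, S1pr1, Klf2, Foxp1, Actn1, Il7r and Txk). Foxp1 also lost its call with a pseudocount of 0.1 TPM, under median-of-ratios scaling and, with Klf2, with no filter on low values.

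Of 15 positioning and egress receptors tested, 4 rose and 1 fell, with a median of 0.4. Besides Cxcr5 and S1pr1, Gpr183, the oxysterol receptor EBI2 that draws cells to the outer follicle and T zone border, stood at 35.4 and 51.2 TPM in ACT, 105 and 98.7 TPM in ACT_IL21 and 84.6 and 81.5 TPM in N (log2 fold change 1.24 ± 0.2 SE, limma adjusted p = 0.0258). Itga4, the integrin alpha-4 chain, stood at 191 and 251 TPM in ACT, 559 and 641 TPM in ACT_IL21 and 222 and 229 TPM in N. For Itga4 the ACT_IL21 libraries alone stood above the rest, whereas for Gpr183 the ACT libraries stood below both other pools (log2 fold change 1.45 ± 0.17 SE, limma adjusted p = 0.00691 for Itga4). Itgae, the integrin chain CD103 that holds cells in epithelia, went the other way, with 26.4 and 18.6 TPM in ACT, 0.63 and 1.26 TPM in ACT_IL21 and 1.02 and 0.8 TPM in N (log2 fold change -3.59 ± 0.43 SE, limma adjusted p = 0.00823). Itgb1, partner of Itga4, stood at 272 and 363 TPM in ACT and 498 and 651 TPM in ACT_IL21 and did not pass (log2 fold change 0.86 ± 0.22 SE, limma adjusted p = 0.103). The call of Gpr183 was lost with the 4 ICOS+ libraries alone (limma adjusted p = 0.102). It was also lost with no filter on low values, as was that of Cxcr5, and without an intensity trend, as were those of S1pr1 and Itga4.

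**Figure D3:**
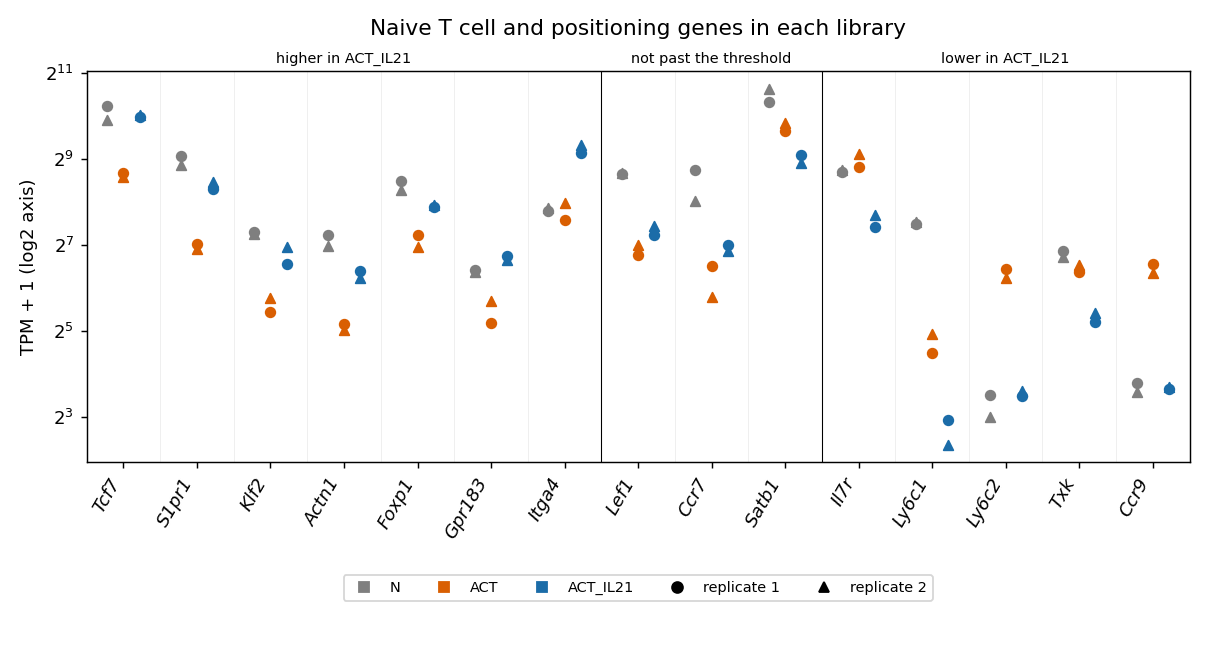
Level of 15 genes of naive T cells and of positioning in each library, as TPM + 1 on a log2 axis, coloured by pool with circles for replicate 1 and triangles for replicate 2. In the left block the ACT libraries lie lowest for most genes, in the middle block the test was not passed, and in the right block Il7r and Txk are lowest in ACT_IL21.

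Of the regulatory T cell genes, Foxp3, Il2ra and 7 others were lower in ACT_IL21. Of 22 tested, 9 fell, 0 rose and 13 did not pass, with a median of -1.17; Areg, the remaining listed gene, was under the filter on low values. Foxp3, the factor that defines regulatory T cells (chrX:7573644-7595245), stood at 65.4 and 51.9 TPM in ACT, 1.57 and 2.69 TPM in ACT_IL21 and 22.2 and 19.4 TPM in N. The ACT_IL21 libraries were the lowest of all 6, below N as well as ACT (log2 fold change -4.27 ± 0.31 SE, limma adjusted p = 0.00212). Il2ra, the high-affinity interleukin-2 receptor chain CD25 (chr2:11642807-11693193), stood at 124 and 125 TPM in ACT, 7.16 and 8.48 TPM in ACT_IL21 and 46.1 and 64.2 TPM in N. It showed the same order (log2 fold change -3.83 ± 0.23 SE, limma adjusted p = 0.0019). Both calls stood in 5 of the 6 fits without 1 library and failed when ACT_IL21 replicate 1 was left out.

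Ikzf4, the Ikaros-family factor Eos, stood at 16.9 and 18.1 TPM in ACT, 2.97 and 1.73 TPM in ACT_IL21 and 12.8 and 10.6 TPM in N (log2 fold change -2.49 ± 0.36 SE, limma adjusted p = 0.016). Lrrc32, which displays latent TGF-beta on regulatory T cells, stood at 23.2 and 14.1 TPM, 0.38 and 1.97 TPM and 11.8 and 10.8 TPM in the same order (log2 fold change -3.24 ± 0.48 SE, limma adjusted p = 0.0175). For both genes ACT_IL21 was again below N. Klrg1, an inhibitory receptor of effector regulatory T cells and of natural killer cells, stood at 72.8 and 98.01 TPM in ACT, 2.86 and 2.7 TPM in ACT_IL21 and 0.33 and 0.91 TPM in N, where ACT was the only high pool (log2 fold change -4.5 ± 0.38 SE, limma adjusted p = 0.00286). Tnfrsf18 (GITR) fell by 1.23, Tnfrsf9 (4-1BB) by 2.4 and Il2rb, the shared interleukin-2 and interleukin-15 receptor chain, by 1.4 on the log2 scale, with limma adjusted p of 0.0136, 0.0136 and 0.0333. Itgae, described above, is the ninth.

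Some genes of the list did not follow. Ikzf2, the factor Helios, stood at 173 and 211 TPM in ACT and 85.1 and 90.2 TPM in ACT_IL21, short of the threshold (log2 fold change -1.12 ± 0.23 SE, limma adjusted p = 0.0556). Ctla4, an inhibitory receptor of regulatory and other activated T cells, chosen after its values were seen, stood at 190.4 and 312 TPM in ACT, 249.7 and 257 TPM in ACT_IL21 and 33.8 and 43.1 TPM in N. The ACT_IL21 libraries lay between the 2 ACT libraries, and the 95% interval of the log2 difference ran from -0.51 to 0.61 (log2 fold change 0.05 ± 0.24 SE, limma adjusted p = 0.946). With the 4 ICOS+ libraries alone, Il2rb, Ikzf4 and Lrrc32 lost their calls. The same 3 and Tnfrsf9 lost them with no filter on low values, Il2rb, Tnfrsf9 and Tnfrsf18 without an intensity trend, and Il2rb with a pseudocount of 0.1 TPM.

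Natural killer and NKT cell markers held 8 falls and no rise. NKT cells are T cells with a semi-invariant receptor and natural killer receptors, and part of them carry CD4. Of 18 tested, 8 fell, 0 rose and 10 did not pass, and all 18 had a negative log2 fold change, with a median of -2.65. The summed level of the list's 22 genes was 1300 and 1150 TPM in ACT, 151 and 125 TPM in ACT_IL21 and 81.1 and 75.5 TPM in N. Klrb1c, which encodes the receptor NK1.1 (chr6:128778485-128789215), stood at 166 and 177 TPM in ACT, 25.5 and 25.7 TPM in ACT_IL21 and 2.56 and 2.38 TPM in N. The pools did not overlap, and ACT_IL21 kept a level above N (log2 fold change -2.7 ± 0.22 SE, limma adjusted p = 0.00282, call kept in 4 of the 6 fits without 1 library). Zbtb16, the factor PLZF of NKT and other innate-like T cells, stood at 40.05 and 27.3 TPM in ACT, 5.91 and 1.7 TPM in ACT_IL21 and 0 and 0.18 TPM in N (log2 fold change -2.98 ± 0.53 SE, limma adjusted p = 0.0333). Xcl1, a chemokine of natural killer and activated cytotoxic cells, stood at 195 and 228 TPM in ACT, 3.89 and 15.6 TPM in ACT_IL21 and 2.06 and 2.08 TPM in N. Its 2 ACT_IL21 libraries differed widely from each other, yet both lay far below ACT (log2 fold change -4.56 ± 0.51 SE, limma adjusted p = 0.00661).

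The other calls of the list were the killer lectin-like receptors Klrd1, Klrk1, Klrc2 and Klre1 and the receptor Cd160. Klrd1 (CD94) stood at 88.5 and 85.9 TPM in ACT, 6.42 and 13.9 TPM in ACT_IL21 and 33.3 and 38.02 TPM in N, so that ACT_IL21 was below N as well (log2 fold change -3.07 ± 0.32 SE, limma adjusted p = 0.0056). Klrk1 (NKG2D) stood at 66.8 and 56.1 TPM in ACT and 1.6 and 6.22 TPM in ACT_IL21 (log2 fold change -3.84 ± 0.52 SE, limma adjusted p = 0.0129). Trav11, the alpha-chain segment of the invariant NKT receptor, stood at 511 and 358 TPM in ACT, 39.05 and 17.7 TPM in ACT_IL21 and 12.7 and 0 TPM in N without passing the test (log2 fold change -3.97 ± 1.02 SE, limma adjusted p = 0.109), and its near-identical copy Trav11d at 356 and 225 TPM, 12.3 and 16.9 TPM and 6.85 and 6.73 TPM did pass (log2 fold change -4.2 ± 0.28 SE, limma adjusted p = 0.0019). How reads were divided between these copies is uncertain, and both were lower in ACT_IL21. Traj18, the joining segment of that receptor, was listed at 0 in all 6 libraries. No joining segment of the alpha chain passed the filter on low values, so this value does not speak to the presence of that receptor. Eomes, a factor of natural killer cells, overlapped between the pools, with 11.1 and 7.34 TPM in ACT and 10.2 and 6.01 TPM in ACT_IL21 (log2 fold change -0.18 ± 0.4 SE, limma adjusted p = 0.88). With the 4 ICOS+ libraries alone, Klre1 and Zbtb16 lost their calls, as they did with a pseudocount of 0.1 TPM. Klrk1, Cd160 and Zbtb16 lost them with no filter on low values, and Zbtb16 without an intensity trend.

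Tcrg-C1, Tcrg-C2, Tcrg-C4 and Tcrg-V4, genes of the T cell receptor gamma chain, which gamma delta T cells use and which some alpha beta T cells also transcribe, fell as well. Of 7 tested genes of the gamma delta list, 4 fell and 3 did not pass, with a median of -2.83 and a summed level of 951 and 652 TPM in ACT, 101 and 73.2 TPM in ACT_IL21 and 13.7 and 10 TPM in N. Tcrg-C1 (chr13:19214103-19217024) stood at 327 and 227 TPM in ACT, 31.4 and 26.5 TPM in ACT_IL21 and 5.22 and 5.62 TPM in N (log2 fold change -3.19 ± 0.24 SE, limma adjusted p = 0.00212). Tcrg-C2 had nearly the same values, 294 and 222 TPM in ACT and 31.5 and 35.7 TPM in ACT_IL21 (log2 fold change -2.89 ± 0.25 SE, limma adjusted p = 0.00311), and reads may be shared among these similar constant genes. Tcrg-C4 and Tcrg-V4 also fell, by 3.74 and 2.83 on the log2 scale, but lost their calls with the 4 ICOS+ libraries alone, with a pseudocount of 0.1 TPM and with no filter on low values. The 2 delta-chain segments tested, both chosen after their values were seen, had positive log2 fold changes and did not pass. Trdv1 stood at 1.72 and 4.51 TPM in ACT, 14.9 and 17.1 TPM in ACT_IL21 and 6.94 and 10.2 TPM in N (log2 fold change 2.13 ± 0.44 SE, limma adjusted p = 0.059). Trdv2-2 was listed at 0 in ACT and stood at 3.83 and 2.88 TPM in ACT_IL21 and 7.2 and 0.59 TPM in N (limma adjusted p = 0.235).

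Markers of other cells were read beside these lists. Pax5, which defines B cells, was at 0 in all 4 ICOS+ libraries, and of 6 B cell genes tested 0 passed; the B cell list summed to 622 and 492 TPM in ACT and 361 and 435 TPM in ACT_IL21, of which Ighm made up 594 and 458 TPM and 336 and 334 TPM. Lyz1, Clec9a, S100a8, S100a9 and Cd14, markers of myeloid and dendritic cells, were likewise at 0, with 0 of 4 genes passing and sums of 73.3 and 63.1 TPM in ACT and 57.7 and 58.1 TPM in ACT_IL21. Of 2 plasma cell genes tested, Prdm1 fell, as above. Globin and other erythroid genes summed to 222 and 79.4 TPM in ACT, 430 and 146 TPM in ACT_IL21 and 224 and 54.7 TPM in N, higher in replicate 1 of each pool, with 0 of 6 passing. Whether other T cell subsets within the ICOS+ gate set the differences above was not tested.

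Of 10 chemokine receptors of effector cells tested, 5 fell, 0 rose and 5 did not pass, with a median of -2.09. Cxcr6, a receptor of tissue-homing effector and NKT cells (chr9:123806475-123811760), stood at 635 and 489 TPM in ACT, 39.1 and 22.02 TPM in ACT_IL21 and 7.44 and 9.14 TPM in N. ACT was the only high pool, and ACT_IL21 lay somewhat above N (log2 fold change -4.2 ± 0.29 SE, limma adjusted p = 0.0019, call kept in 5 of the 6 fits without 1 library, failing without ACT_IL21 replicate 1). Ccr2, an inflammatory receptor, stood at 221 and 204 TPM in ACT, 28.04 and 14.1 TPM in ACT_IL21 and 1.51 and 0.58 TPM in N (log2 fold change -3.35 ± 0.38 SE, limma adjusted p = 0.00661). Its ACT_IL21 libraries remained above N. Ccr9, the gut-homing receptor, stood at 93.5 and 80.8 TPM in ACT, 11.4 and 11.96 TPM in ACT_IL21 and 12.8 and 10.96 TPM in N, with ACT_IL21 inside the range of N (log2 fold change -2.79 ± 0.23 SE, limma adjusted p = 0.00282). Ccr8 fell by 2.36 on the log2 scale but lost its call with the 4 ICOS+ libraries alone, with a pseudocount of 0.1 TPM and with no filter on low values. Cxcr3, the receptor of type 1 effector cells, with 252 and 171 TPM in ACT, 123 and 152 TPM in ACT_IL21 and 2.24 and 0.91 TPM in N, did not pass (log2 fold change -0.6 ± 0.31 SE, limma adjusted p = 0.419).

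Lists of the other helper lineages held fewer calls. Of 17 type 1 helper genes, 3 fell and 0 rose, with a median of -0.6; among these were Il12rb2, the inducible interleukin-12 receptor chain (52.1 and 45.6 TPM in ACT and 8.35 and 6.29 TPM in ACT_IL21, log2 fold change -2.59 ± 0.3 SE, limma adjusted p = 0.00757), and Fasl, the death ligand (43.4 and 67.4 TPM and 14.96 and 7.86 TPM, log2 fold change -2.21 ± 0.36 SE, limma adjusted p = 0.0255). The call of Fasl was lost with the 4 ICOS+ libraries alone, with no filter on low values and without an intensity trend. Ifng, the type 1 cytokine, chosen after its values were seen, stood at 126 and 168 TPM in ACT, 65.5 and 94.6 TPM in ACT_IL21 and 0.58 and 4.83 TPM in N. Reporter-positive cells thus had Ifng mRNA well above N, and their difference from ACT did not pass (log2 fold change -0.88 ± 0.54 SE, limma adjusted p = 0.504). Tbx21, the type 1 factor T-bet, with 28.5 and 13.9 TPM in ACT and 4.23 and 6.54 TPM in ACT_IL21, did not pass either (log2 fold change -1.74 ± 0.48 SE, limma adjusted p = 0.13). Of 7 type 2 helper genes, 3 fell (Il4, Ccr8 and Il17rb) with a median of -2.04, and all 7 had a negative log2 fold change. Il17rb, the receptor for interleukin-25, stood at 69.7 and 43.8 TPM in ACT, 7.13 and 7.57 TPM in ACT_IL21 and 1.75 and 2.18 TPM in N (log2 fold change -2.75 ± 0.35 SE, limma adjusted p = 0.0104). Of 6 type 17 genes, 0 passed, with a median of 0.19 and Il17a listed at 0 throughout. Rora, the most abundant of these, stood at 101 and 95.1 TPM in ACT and 50.3 and 42.1 TPM in ACT_IL21 (log2 fold change -1.07 ± 0.21 SE, limma adjusted p = 0.0524).

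Cytotoxic granule genes added 3 that fell of 11 tested, with a median of -1.43. Nkg7, a granule membrane protein, stood at 539 and 399 TPM in ACT, 164 and 109 TPM in ACT_IL21 and 8.9 and 8 TPM in N, so that ACT_IL21 was intermediate (log2 fold change -1.79 ± 0.24 SE, limma adjusted p = 0.0129). Ctsw, a cathepsin of cytotoxic cells, stood at 130.3 and 97.2 TPM, 17.6 and 16.1 TPM and 20.97 and 17.1 TPM in that order, with ACT_IL21 at about the level of N (log2 fold change -2.67 ± 0.23 SE, limma adjusted p = 0.00324). Serpinb6b, a protease inhibitor, fell by 1.46 on the log2 scale (66.2 and 71.03 TPM in ACT and 27.3 and 21.6 TPM in ACT_IL21), and lost its call with the 4 ICOS+ libraries alone. Nkg7 and Serpinb6b lost theirs with no filter on low values and without an intensity trend. Of 18 cytokine and chemokine genes, 3 fell and 0 rose: Il4, Xcl1 and Csf2. Csf2, which encodes GM-CSF, stood at 9.79 and 6.57 TPM in ACT and was listed at 0 in both ACT_IL21 libraries, so no fold is given. Its call was lost with the 4 ICOS+ libraries alone (limma adjusted p = 0.0645) and with a pseudocount of 0.1 TPM.

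**Figure D4:**
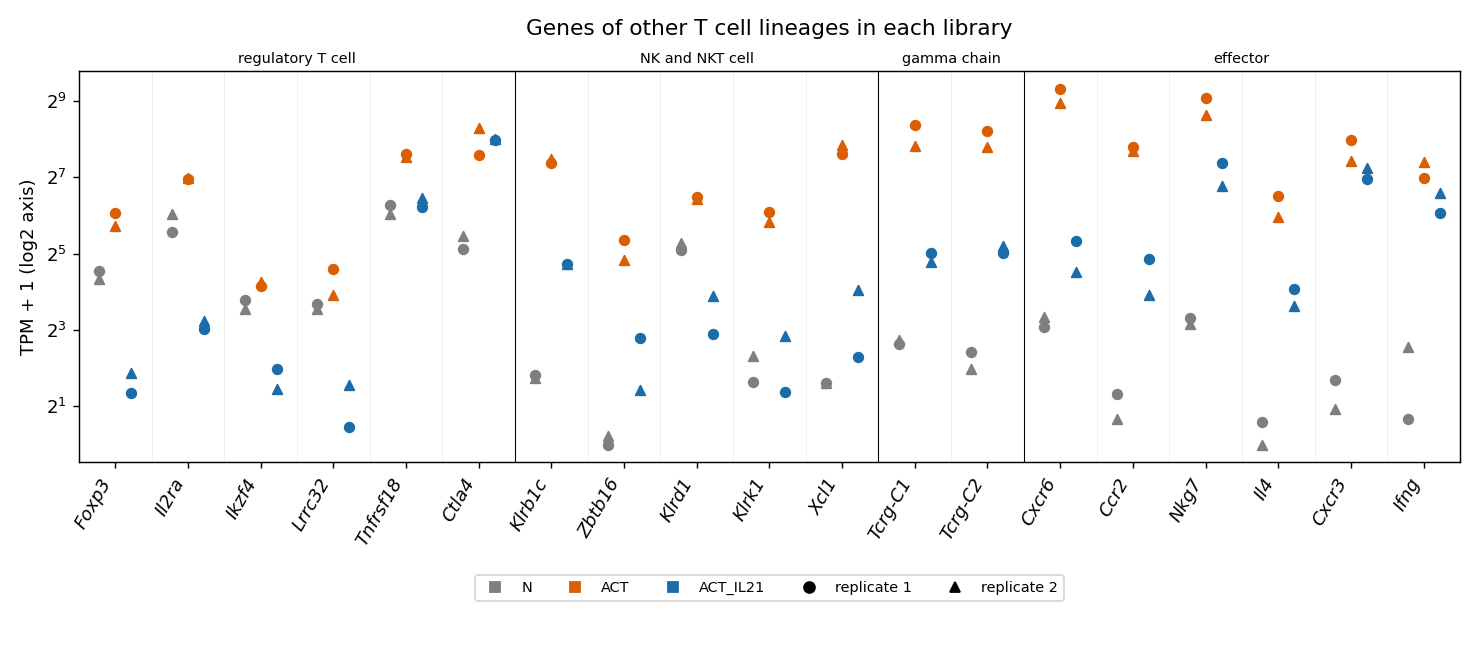
Level of 19 genes of regulatory, natural killer and NKT, gamma-chain and effector T cells in each library, as TPM + 1 on a log2 axis, with N in grey, ACT in orange and ACT_IL21 in blue. ACT_IL21 lies below N for Foxp3, Il2ra, Ikzf4, Lrrc32 and Klrd1 and between N and ACT for Klrb1c, Tcrg-C1, Ccr2 and Nkg7; Ctla4, Cxcr3 and Ifng did not pass the test.

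Among cytokine receptors, of 29 tested, 5 fell (Il2ra, Il2rb, Il7r, Il12rb2 and Ifngr1), 1 rose (Il6ra) and 23 did not pass, with a median of -0.35. Ifngr1, a chain of the interferon-gamma receptor, stood at 176 and 153 TPM in ACT, 86.7 and 72.4 TPM in ACT_IL21 and 111 and 123 TPM in N, lowest in ACT_IL21 (log2 fold change -1.04 ± 0.17 SE, limma adjusted p = 0.0239). Il2rg, the common chain that Il2ra, Il2rb, Il7r and the interleukin-21 receptor share, was far more abundant, with 949.7 and 911 TPM in ACT and 692 and 769 TPM in ACT_IL21, and did not pass (log2 fold change -0.35 ± 0.13 SE, limma adjusted p = 0.281). Il21r itself, chosen after its values were seen, stood at 30.8 and 23.7 TPM in ACT, 25.6 and 31.04 TPM in ACT_IL21 and 37.6 and 28.8 TPM in N, overlapping in all 3 pools (log2 fold change 0.06 ± 0.25 SE, limma adjusted p = 0.94). With the 4 ICOS+ libraries alone, Il2rb, Il6ra and Ifngr1 lost their calls, as they did with no filter on low values and, with Il7r, without an intensity trend.

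TNF-family ligands went both ways. Of 10 tested, 2 rose (Tnfsf8 and Tnfsf9) and 2 fell (Fasl and Tnfsf10), with a median of -0.19. Tnfsf9, the ligand of 4-1BB, was listed at 0 throughout ACT and reached 4.78 and 4.18 TPM in ACT_IL21, so no fold is given. Tnfsf10, the death ligand TRAIL, stood at 72.3 and 56.6 TPM in ACT, 18.9 and 19.7 TPM in ACT_IL21 and 22.7 and 27.5 TPM in N, high in ACT alone (log2 fold change -1.68 ± 0.23 SE, limma adjusted p = 0.0129). Among these 4, the call of Tnfsf8 was the one kept with the 4 ICOS+ libraries alone; that of Tnfsf9 was also lost with a pseudocount of 0.1 TPM. Of 14 TNF receptors, 3 fell and 0 rose, with a median of -0.25. They were Tnfrsf9, which stood at 112 and 78.3 TPM in ACT, 14.3 and 19.9 TPM in ACT_IL21 and 9.18 and 16.3 TPM in N, Tnfrsf18 (196 and 183 TPM, 73.9 and 87.5 TPM and 76.1 and 64.5 TPM) and Tnfrsf1b (65.99 and 61.4 TPM, 30.7 and 27.6 TPM and 11.2 and 13 TPM), the last just within the threshold (log2 fold change -1.1 ± 0.22 SE, limma adjusted p = 0.0497). Without an intensity trend all 3 lost their calls, and Tnfrsf1b also did with the 4 ICOS+ libraries alone. Tnfrsf8, the receptor of CD30 ligand, was near 0, with 1.46 and 2.96 TPM in ACT and 1.06 and 0.23 TPM in ACT_IL21.

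Inhibitory receptors and genes tied to anergy had 3 that rose (Btla, Cd200 and Dgka) and 1 that fell (Cd160) of 20 tested, with a median of 0.62. Dgka, a kinase that removes diacylglycerol and dampens T cell receptor signals, stood at 216 and 227 TPM in ACT, 418 and 478 TPM in ACT_IL21 and 631 and 579.8 TPM in N, and so shared the order of Tcf7 and S1pr1 (log2 fold change 1.01 ± 0.14 SE, limma adjusted p = 0.0134). Cd160 stood at 138 and 72.4 TPM in ACT and 18.6 and 12.4 TPM in ACT_IL21 (log2 fold change -2.64 ± 0.35 SE, limma adjusted p = 0.0121). Lag3, with 6.24 and 1.7 TPM in ACT and 27.04 and 19.5 TPM in ACT_IL21, was higher in both ACT_IL21 libraries without passing (log2 fold change 2.44 ± 0.57 SE, limma adjusted p = 0.0819). With the 4 ICOS+ libraries alone, Btla, Cd200 and Dgka lost their calls, which left Cd160, whose call was lost with no filter on low values.

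Of 26 genes induced by T cell receptor signals that were tested, 4 fell (Bhlhe40, Ikzf3, Spry2 and Tnfrsf9) and 0 rose, with a median of -0.09. Bhlhe40, a basic helix-loop-helix factor of effector cytokine control, stood at 194 and 165 TPM in ACT, 62.3 and 75.8 TPM in ACT_IL21 and 4.49 and 5.94 TPM in N, with ACT_IL21 between the others (log2 fold change -1.37 ± 0.22 SE, limma adjusted p = 0.0239). Spry2, a feedback inhibitor of kinase signalling, stood at 17.5 and 16.3 TPM in ACT, 1.3 and 0.12 TPM in ACT_IL21 and 0.87 and 0.45 TPM in N (log2 fold change -3.48 ± 0.49 SE, limma adjusted p = 0.015). Ikzf3, the factor Aiolos, stood at 325 and 316 TPM in ACT and 188 and 178 TPM in ACT_IL21 (log2 fold change -0.81 ± 0.13 SE, limma adjusted p = 0.0255). Egr1, an immediate response gene, was among the closest to the threshold in the other direction, with 45.9 and 41.8 TPM in ACT and 69.2 and 78.2 TPM in ACT_IL21 (log2 fold change 0.74 ± 0.18 SE, limma adjusted p = 0.0908). Spry2 and Ikzf3 lost their calls with the 4 ICOS+ libraries alone, and Bhlhe40, Ikzf3 and Tnfrsf9 without an intensity trend.

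Of 25 memory and effector genes, 1 rose (Anxa2), 6 fell (Id2, Prdm1, Cxcr6, Ccr2, Bhlhe40 and Plac8) and 18 did not pass, with a median of 0.14. S100a4, a calcium-binding protein of memory cells, chosen after its values were seen, stood at 385 and 497 TPM in ACT, 402 and 442 TPM in ACT_IL21 and 6.04 and 5.16 TPM in N. The ICOS+ pools overlapped, and the 95% interval of their log2 difference ran from -0.47 to 0.36 (log2 fold change -0.05 ± 0.18 SE, limma adjusted p = 0.924). Cd44, the adhesion receptor used to define activated T cells and likewise chosen after its values were seen, stood at 221 and 207 TPM in ACT, 234 and 205 TPM in ACT_IL21 and 26.9 and 22.3 TPM in N, with an interval from -0.35 to 0.42. Anxa2, an annexin, stood at 25.9 and 46.1 TPM in ACT, 121 and 96.6 TPM in ACT_IL21 and 3.52 and 4.42 TPM in N (log2 fold change 1.61 ± 0.31 SE, limma adjusted p = 0.048), and lost its call with the 4 ICOS+ libraries alone and under median-of-ratios scaling. Plac8 stood at 85.8 and 47.7 TPM in ACT and 5.89 and 0.73 TPM in ACT_IL21 (log2 fold change -4.23 ± 0.65 SE, limma adjusted p = 0.0208), and lost its call with the 4 ICOS+ libraries alone.

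Lists of cell state held few calls, as did all genes tested, of which 1.95% were called. Few or no calls in lists of this size thus do not set them apart from all genes. Of 32 cell cycle genes 0 passed, although 26 had a positive log2 fold change and the median was 0.52; Pcna, the most abundant, stood at 416 and 539 TPM in ACT and 430.04 and 352 TPM in ACT_IL21, and Tpx2, a spindle protein, had the smallest p with 4.14 and 2.67 TPM and 21 and 26.3 TPM (log2 fold change 2.5 ± 0.53 SE, limma adjusted p = 0.0647). Of 24 interferon response genes 0 passed, 20 had a negative log2 fold change and the median was -0.49. Of 18 glycolysis genes 1 fell, Slc2a3, a glucose transporter, with 92.7 and 87.8 TPM in ACT, 27.2 and 23.3 TPM in ACT_IL21 and 33.2 and 34.1 TPM in N (log2 fold change -1.8 ± 0.19 SE, limma adjusted p = 0.00536), and the median was 0.02. Of 14 dissociation and stress genes 1 rose, Fos, an immediate early factor, with 50.6 and 46.5 TPM in ACT and 106 and 121 TPM in ACT_IL21 (log2 fold change 1.2 ± 0.17 SE, limma adjusted p = 0.0136). Fosb, with 10.8 and 15.97 TPM in ACT and 32.9 and 56.4 TPM in ACT_IL21, did not pass (log2 fold change 1.64 ± 0.35 SE, limma adjusted p = 0.0647), and the list's median was 0.47. Of 14 T cell core genes 2 rose, Cd4 and Cd247, the zeta chain of the receptor complex (150.02 and 134 TPM in ACT, 262 and 282 TPM in ACT_IL21 and 251 and 228 TPM in N, log2 fold change 0.94 ± 0.14 SE, limma adjusted p = 0.0205). Cd4 kept its call with the 4 ICOS+ libraries alone, and Fos and Cd247 did not; all 3 lost it without an intensity trend.

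**Figure D5:**
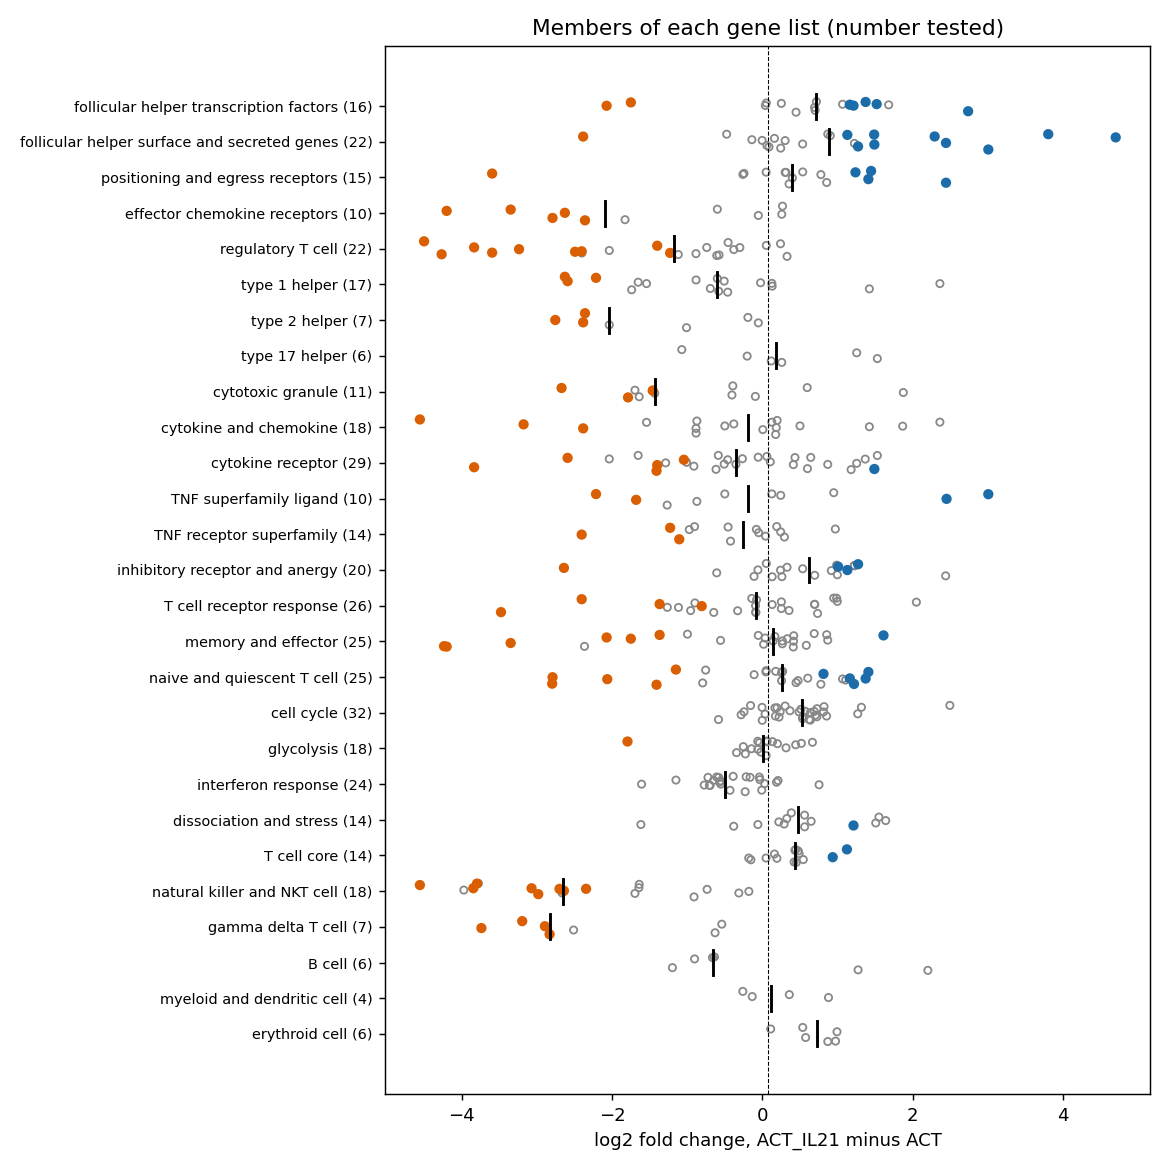
Log2 fold change of ACT_IL21 minus ACT for each tested member of 27 gene lists. Filled blue points rose and filled orange points fell at a limma adjusted p under 0.05, open points did not pass, black bars are list medians and the dashed line is the median of all 13311 genes, 0.0759. The lowest medians belong to the gamma delta, natural killer and NKT, type 2 helper and effector chemokine receptor lists, and the highest to follicular helper surface genes.

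The 20 largest rises and 20 largest falls, receptor segments and provisional symbols apart, went beyond these lists. Gpm6b, Tnfsf8, Tox2, Cxcr5, Angptl2 and Sostdc1, given above, were among the 20 that rose most. Stfa3, a cysteine protease inhibitor with near-identical copies, was listed at 0 in ACT and N and reached 33.9 and 15.1 TPM in ACT_IL21. Like Sostdc1, it passed the filter on low values through ACT_IL21 alone and could only rise. Esm1, a secreted proteoglycan, was listed at 0 in ACT and reached 4.82 and 11.8 TPM in ACT_IL21. Cacna1d, a subunit of a voltage-gated calcium channel, stood at 1.59 and 0.57 TPM in ACT, 13.4 and 11.7 TPM in ACT_IL21 and 0.12 and 0.11 TPM in N (log2 fold change 2.74 ± 0.45 SE, limma adjusted p = 0.0258). Rab39b, a small GTPase of vesicle transport, at 0.49 and 1.31 TPM in ACT and 8.85 and 10.2 TPM in ACT_IL21 (log2 fold change 2.5 ± 0.46 SE, limma adjusted p = 0.0378), and Sccpdh, at 2.18 and 4.42 TPM and 19.1 and 27.6 TPM (log2 fold change 2.53 ± 0.44 SE, limma adjusted p = 0.0315), were also close to 0 in N. All 3 were highest by far in ACT_IL21. Rnf32, a RING-finger protein, was different, with 2.77 and 0.35 TPM in ACT, 20.7 and 20 TPM in ACT_IL21 and 18.3 and 16.8 TPM in N (log2 fold change 3.24 ± 0.49 SE, limma adjusted p = 0.0204). Spsb1, an adaptor of ubiquitin ligases, and Cd302, a lectin receptor, shared that order, with 0.9 and 0.58 TPM and 4.35 and 4.48 TPM in ACT, 9.23 and 7.09 TPM and 22.1 and 17.6 TPM in ACT_IL21, and 7.64 and 7.07 TPM and 13.1 and 19.5 TPM in N. H2-Q2, Hist1h3i, Tspan2, Btbd8, Ramp3 and Qprt complete the 20, with ACT_IL21 levels between 3.37 TPM (Btbd8) and 44.9 TPM (Qprt).

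Among the 20 that fell most, Foxp3, Klrg1, Il2ra, Cxcr6, Xcl1, Klrk1, Klrc2, Plac8, Itgae and Spry2 belong to the lists above. Aqp9, a channel for water and glycerol, stood at 38.3 and 22.4 TPM in ACT, 0 and 0.46 TPM in ACT_IL21 and 0.68 and 0.92 TPM in N (log2 fold change -4.65 ± 0.46 SE, limma adjusted p = 0.00477). Aqp9 passed the filter on low values through ACT alone and could only fall. Atp8a2, a phospholipid flippase, stood at 50.4 and 46.7 TPM in ACT, 2.35 and 2.12 TPM in ACT_IL21 and 1.37 and 1.17 TPM in N (log2 fold change -3.94 ± 0.36 SE, limma adjusted p = 0.00324). Nedd4, a ubiquitin ligase, stood at 56.1 and 52.8 TPM, 3.85 and 3.33 TPM and 2.32 and 2.25 TPM in that order (log2 fold change -3.6 ± 0.32 SE, limma adjusted p = 0.00324). These 3 were low outside ACT. Zfp683, the factor Hobit of tissue-resident lymphocytes, stood at 120.00 and 78.2 TPM in ACT, 5.48 and 7.59 TPM in ACT_IL21 and 1.73 and 0.87 TPM in N (log2 fold change -3.71 ± 0.37 SE, limma adjusted p = 0.00493). Atp8b4, another flippase, departed from that order with 59.4 and 35.9 TPM in ACT, 4.89 and 1.79 TPM in ACT_IL21 and 46.8 and 43.9 TPM in N, being low in ACT_IL21 alone (log2 fold change -3.54 ± 0.4 SE, limma adjusted p = 0.00666). Slc27a6, Fgl2, Rmdn2 and Rab4a, also among the 20, fell by 3.55 to 4.07 on the log2 scale and had at most 3.12 TPM (Fgl2) in an ACT_IL21 library.

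The N libraries place these differences. Of the 106 genes that rose, 28 had a mean in N below both ICOS+ pools, as Cxcr5 and Gpm6b did, 23 above both, as Tcf7 and S1pr1 did, and the others between them or level with 1 of them, 27 nearer to ACT and 28 nearer to ACT_IL21. Of the 153 that fell, 60 had a mean in N below both pools, as Id2 and Klrb1c did, 11 above both, as Ly6c1 and Txk did, 51 lay between and nearer to ACT_IL21, as Ccr9 and Ctsw did, and 31 between and nearer to ACT, as Foxp3 and Il7r did. These counts describe levels and carry no test.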

How the data were processed

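RNA was measured in 6 libraries of sorted CD4+ T cells, 2 per pool. The authors deposited 1 TPM value per gene and library. Per the submitters' processing notes, Trimmomatic, Bowtie, RSEM and the build GRCm38 were used; versions, annotation release, strand setting and read length are not stated there or in the labels. Per the labels' protocols, polyadenylated RNA was amplified with the NuGEN Ovation kit, and the sequencer was an Illumina MiSeq. TPM keeps no read count, so depth is unknown and no counting interval or floor is given. Because TPM sums to a fixed total, abundant transcripts lower the values of others, and near-identical, overlapping or antisense genes share reads with error.

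Rows with a repeated symbol (139) were summed. Genes reaching 1 TPM in 2 or more libraries were fitted on log2(TPM + 1) with limma 3.58.1 in R 4.3.3, over all 6 libraries with a term for the pool and an intensity trend (3 residual and 4.841 prior degrees of freedom). Tests were two-sided, with Benjamini-Hochberg adjustment over the 13311 genes and a threshold of 0.05; intervals cover 95%. The script was tested on simulated data. Genes listed at 0 in both libraries of a pool get no fold against it but enter list medians with their fitted value. Gene coordinates are GENCODE M21 (GRCm38), which matched 244 of the 259 called symbols directly and 8 by an older name, with 7 unmatched; promoters are RefSeq's.

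The comparison and the gene lists were chosen with earlier results of these data known, and lists overlap. Named were the sort genes, the 20 largest changes in each direction with a mean of at least 5 TPM in the higher pool (receptor segments and provisional symbols left out), list members past the threshold and up to 3 others with the smallest p, or the most abundant where none passed. Cd3e, Maf, Ctla4, Eomes, Ifng, Il21r, Il2rg, Tnfrsf8, S100a4, Cd44 and Cd8a were chosen after their values were seen. A few genes that the rule names are not reported here. Alternatives changed the pseudocount, filter, scaling, trend and libraries used.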

Additional observations from a re-analysis of the deposited data

How the results depend on the processing

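With no filter on low values 43 genes rose and 81 fell, 124 in all. Without the intensity trend 59 rose and 180 genes were called in all, of which 139 were among the 259. Fitted on the ACT and ACT_IL21 libraries alone, 26 rose and 66 fell, 92 in all, of which 90 were among the 259. With each library left out in turn, 0 to 29 rose and 0 to 55 fell, 0 to 81 in all. The extremes were ACT_IL21 replicate 1 left out (0 calls by limma, 1631 genes at an unadjusted p under 0.05) and ACT replicate 2 left out (81 calls), and no gene kept its call in all 6 such fits. The cause of these shifts was not tested, but each of the smaller fits has fewer libraries, and the unfiltered fit more genes. A pseudocount of 0.1 or 5, a filter of 5 TPM, median-of-ratios scaling and rescaling without ribosomal and receptor genes kept every count within 1.5 times of the reported one, though at a pseudocount of 0.1 only 182 of the 259 genes kept their call. No called gene changed direction under any of these settings in which it was tested. Because the ACT and ACT_IL21 libraries of the 259 genes do not overlap, only the changes of scaling could have reversed a direction.

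The replicate numbers were not shown to pair the libraries: deviations of same-numbered ACT and ACT_IL21 libraries correlated at 0.000782, and those of N with ACT and ACT_IL21 at 0.21 and -0.004. With the replicate number as a block, 121 genes rose and 163 fell, 284 in all, 246 of them among the 259.

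Duplicates without known depth limit every call: low genes rest on an unknown number of reads, and the shared spread is estimated with the N libraries.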

Other observations

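Variable segments of the T cell receptor alpha chain held 9 rises in ACT_IL21: of 99 Trav segments tested, 9 rose, 1 fell (Trav11d) and 84 had a positive log2 fold change, with a median of 0.92 beside 0.0759 for all genes. Trav14-2 stood at 28.6 and 13.9 TPM in ACT, 108 and 61.7 TPM in ACT_IL21 and 71.2 and 66.1 TPM in N, so that ACT was again the low pool (log2 fold change 1.98, limma adjusted p = 0.0389). Of 21 Trbv segments, 16 had a positive log2 fold change, 0 rose and 1 fell (Trbv29), with a median of 0.57. Copies of these segments share reads, and these families were chosen after their values were seen.

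Interferon-inducible GTPases, taken by symbols starting with Gbp, Tgtp, Irgm, Igtp, Iigp or Gvin, all had a negative log2 fold change. These were 18 of 18 with a median of -0.56, though 3 fell past the threshold. Gbp7 stood at 127 and 116 TPM in ACT and 61.3 and 50.7 TPM in ACT_IL21, with 74.3 and 77.7 TPM in N (log2 fold change -1.11, limma adjusted p = 0.0206). Gbp6 and Tgtp1 also fell, with log2 fold changes of -0.97 and -1.1. Among 92 genes with ribosomal protein symbols, 79 had a negative log2 fold change, with a median of -0.2 beside 0.0759 for all genes. Of the 92, 1 fell (Rps12l1, annotated as a processed pseudogene), a share near the 1.15% of all genes tested that fell. Both members tested of the Serpina3 protease inhibitor family fell: Serpina3g stood at 53.2 and 48.9 TPM in ACT, 13.1 and 10.4 TPM in ACT_IL21 and 0.47 and 0.52 TPM in N (log2 fold change -2.04, limma adjusted p = 0.0239), and Serpina3f at 21.4 and 27.8 TPM in ACT, 1.57 and 3.95 TPM in ACT_IL21 and 0.22 and 0 TPM in N.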
